A study of Mus musculus with 171 samples.

Results

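Synovium is the thin tissue that lines the joint cavity, and arthritis is its inflammation. The comparison described here set synovium of mice with acute arthritis against normal synovium, with 2 arrays in each group, and stands beside 167 further arrays of a mouse tissue atlas. A pair of arrays of synovium with chronic arthritis from the same atlas gave values beside them. The labels give the tissue and its state (acute arthritis, chronic arthritis or normal) and that total RNA was used. They name no strain, age, joint, way of inducing arthritis, time after onset or pooling, and none says whether both arrays of a group came from separate animals. The titles of both arrays in a group end in the same number, and no label says what it stands for. The p-values therefore measure spread between arrays, and that spread may be of technical origin. The arrays were chosen by their source label and all probes were used: 8638 of 8734 probes passed the filter on missing values, and 1 probe stood for each of 5702 named genes. Every array was hybridised with tissue RNA and a universal mouse reference RNA in its 2 channels. The deposited value of a probe is a ratio of the channels, read here as the log2 of tissue over reference, and it is centred, so that 0 is the usual level of that probe over the atlas and levels of different genes cannot be compared.

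Normal synovium consists of a thin lining, in which macrophages lie among fibroblasts that make hyaluronan and lubricin, over a looser layer with vessels, fat and collagen. In arthritis neutrophils and monocytes enter from the blood, the lining thickens, and its fibroblasts and macrophages release cytokines, chemokines and proteases. Myeloid cells at the joint margin can become osteoclasts, the cells that resorb bone, while fibroblasts lay down new matrix.

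Both arrays of each group were alike. Over the tested probes the acute arrays correlated at r = 0.929, the normal arrays at 0.962 and the chronic arrays at 0.882, while acute and normal arrays correlated at 0.584 to 0.615, across genes that are not independent. No pair of the 6 synovium arrays held identical values. The median of the array was 0.067 and 0.046 in acute and 0.110 and 0.148 in normal synovium. The codes in the titles place 1 array of each group in a first run of consecutive codes and 1 in a second. The label of the tissue was checked against markers. Prg4, Vcam1 and Pdpn were not analysed here. Thy1, a surface protein of fibroblasts, read 1.01 on both normal arrays, rank 25 of 88 sources, and Lum, the collagen-binding proteoglycan lumican, 1.58 and 1.63, rank 14. Comp, a matrix protein of cartilage, tendon and synovium, ranked 8 in normal synovium at 0.91 and 1.13. Averaged over the 9 measured synovial fibroblast markers, however, the ratio was only 0.15 on both normal arrays, near the usual level of 0. Markers of skin and muscle were high on all 6 arrays: Krtdap of keratinocytes read 5.96 to 6.90 and Mb, the myoglobin of muscle, 3.54 to 4.88. Averaged over the 7 measured keratinocyte markers the ratio was 2.41 and 2.47 in normal, 2.51 and 2.44 in acute and 2.54 and 2.44 in chronic synovium. Over the 16 measured skeletal muscle markers it was 1.73 on both normal arrays, 1.43 and 1.44 in acute and 1.97 and 1.84 in chronic synovium.

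Between acute arthritis and normal synovium more genes were called higher than lower when all arrays of the atlas gave the spread. By limma with Benjamini-Hochberg adjustment and a threshold of 0.05, 506 of 5702 genes (8.87%) rose and 36 (0.631%) fell, and 198 of those that rose did so by more than 2-fold and 39 by more than 4-fold. The median difference was 0.89 among the genes that rose and -0.72 among those that fell, against -0.08 over all genes. Over probes, 783 of 8638 (9.06%) passed, 731 higher and 52 lower. Quantile normalization changed this split to 1072 higher and 476 lower. The split depended more on which arrays gave the spread. It was 1858 higher and 1349 lower with the 69 arrays whose title codes begin with AC. These arrays are called the AC lot here for short, though no label says that they form a lot or batch. The split was 1760 and 1383 with the 6 synovium arrays, and turned to 2163 higher and 2559 lower with the 4 arrays compared alone. Fits with 1 array left out gave fewer calls. A mean of 1 array is less precise, so a call can be lost without a change in the difference. Over these fits the difference of Cd44 ranged from 1.28 to 1.33, whereas that of Cep83 ranged from -2.59 to -0.84. With acute array 1 left out, 232 of the 506 genes that rose passed, without acute array 2 it was 311, without normal array 1 252 and without normal array 2 272. A call under each of these held for 211 of the 506, and for 0 of the 36 that fell, of which 5, 7, 4 and 8 passed without acute array 2, acute array 1, normal array 2 and normal array 1. In these fits a lone array was assumed to vary as arrays of other tissues do. The smallest p that an exact permutation test of 2 against 2 arrays can give is 0.333, so each call rests on the spread pooled over 88 sources.

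**Figure D1:**
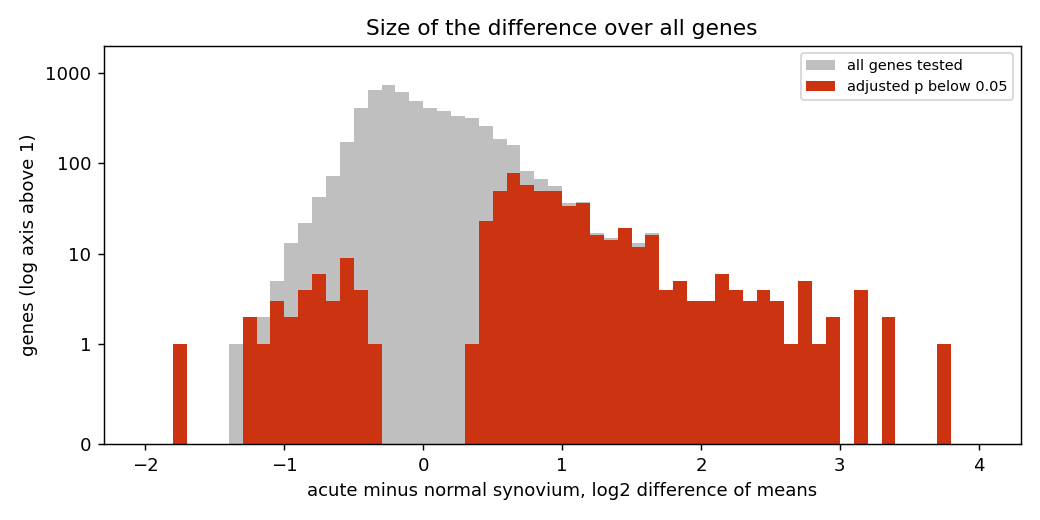
Number of genes (vertical, logarithmic above 1) by the log2 difference of acute minus normal synovium (horizontal, bins of 0.1), for all 5702 genes in grey and for those with an adjusted p below 0.05 in red. The red bars reach 3.76 on the right and -1.72 on the left, and hold 506 genes above 0 and 36 below.

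The largest increase was that of Slpi, the secretory leukocyte protease inhibitor, which blocks neutrophil elastase and other serine proteases. Its ratio was 3.19 and 3.03 on the acute arrays, -0.71 and -0.60 on the normal arrays and 1.93 and 1.84 on the chronic arrays. Every acute array lay far above every normal one, by 3.76 on the log2 scale (SE 0.37), or 13.6-fold, with adjusted p = 1.16e-13 (limma). Next came Col1a1 and Lum, genes of fibrous collagen and its partner, then Angptl4, an inhibitor of lipoprotein lipase, and Ctss, the protease cathepsin S of antigen-presenting cells. Angptl4 read 2.32 and 2.38 in acute, -0.60 and -1.06 in normal and -0.21 and -0.05 in chronic synovium, so that acute synovium stood alone above the other states. It was 9.07-fold higher than normal (difference 3.18, SE 0.28, adjusted p = 6.83e-16), and its rank among the 88 sources was 5 in acute against 74 in normal synovium. Olfml3, a secreted olfactomedin-like protein, rose 6.89-fold to the highest level of all 88 sources, and Bet1, a SNARE protein of transport from endoplasmic reticulum to Golgi, rose 6.70-fold to rank 2.

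**Figure D2:**
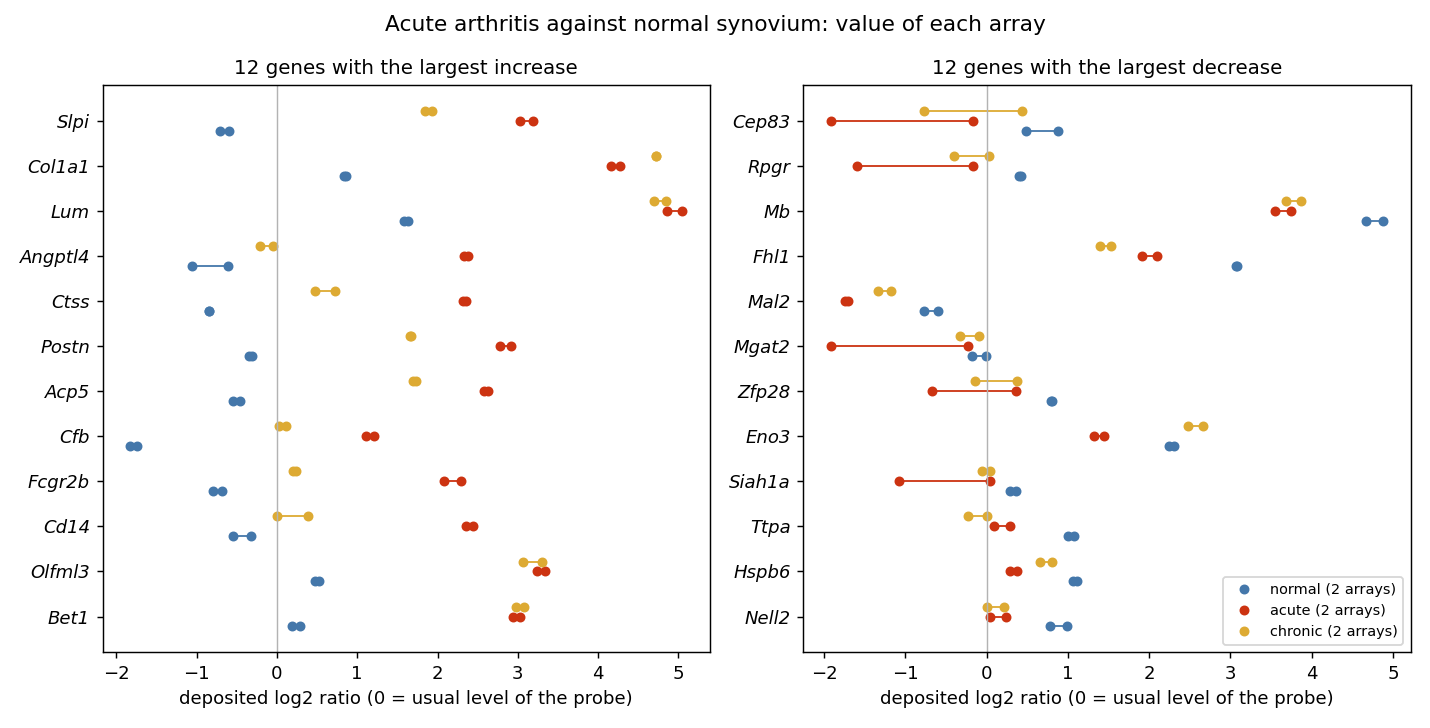
Deposited log2 ratio (horizontal) on each array of normal (blue), acute (red) and chronic (yellow) synovium for the 12 genes with the largest increase (left) and the 12 with the largest decrease (right) among genes called with both groups apart. Points joined by a line are the arrays of a group. On the left red lies above blue for each gene, with Slpi at 3.03 and 3.19 against -0.71 and -0.60. On the right Cep83, Rpgr, Mgat2, Zfp28 and Siah1a have wide gaps between the acute arrays.

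Markers of macrophages were higher in acute synovium in 9 of 16 measured members, and 0 were lower, against 8.87% of all genes higher. Their median difference was 1.04, against -0.08 over all genes, and the count was 9 whichever array was left out. Ctss read 2.32 and 2.36 in acute and -0.84 on both normal arrays, a 9.06-fold difference (3.18, SE 0.35, adjusted p = 4.86e-12). Fcgr2b, the inhibitory receptor for IgG, read 2.30 and 2.08 in acute and -0.79 and -0.69 in normal synovium. That is 7.61-fold (2.93, SE 0.23, adjusted p = 1.64e-18), and acute synovium held the highest level of Fcgr2b among the 88 sources, normal synovium rank 68. Cd14, the co-receptor for bacterial lipopolysaccharide, read 2.35 and 2.45 against -0.54 and -0.32, 7.12-fold higher. Mpeg1, a pore-forming protein of phagocytes, rose 6.70-fold, and the lysosomal protease gene Lgmn 5.61-fold. C1qc, a chain of complement C1q, rose 2.94-fold, Cd68, a lysosomal protein of macrophages, 2.17-fold and Adgre1, the F4/80 antigen, 1.95-fold. The other members did not move together: Tyrobp, an adaptor of myeloid receptors, differed by 0.42 (adjusted p = 0.297), and Lgals3, the galectin of macrophages and epithelia, by -0.93 (adjusted p = 0.144), with its acute arrays far apart at 0.20 and -0.51. Under quantile normalization 10 of the 16 macrophage markers were higher and 2 lower. In a bulk tissue more cells of a type and more RNA per cell cannot be told apart.

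Acp5, the tartrate-resistant acid phosphatase of osteoclasts and activated macrophages, read 2.63 and 2.58 in acute, -0.46 and -0.55 in normal and 1.70 and 1.73 in chronic synovium. Acute synovium had the highest mean of the 88 sources, 8.61-fold over normal (3.11, SE 0.31, adjusted p = 2.53e-13). The other osteoclast markers measured were Ostm1 and Clcn7, partners in acidifying the resorption space, at 0.51 and 0.47 (adjusted p = 0.279 and 0.170). Thus 1 of 3 passed, against 8.87% of all genes higher.

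Neutrophil genes rose in 5 of 10 measured members, against 8.87% of all genes. Their median difference was 0.59, and 0.478 to 0.76 with an array left out. S100a8, a calcium-binding protein that makes up much of the neutrophil cytosol, read 2.45 and 2.42 in acute, -0.31 and -0.25 in normal and 0.73 and 0.70 in chronic synovium. Acute synovium ranked 2 of 88 for it, 6.56-fold over normal (2.71, SE 0.22, adjusted p = 4.50e-18). The granule proteins also rose: Ltf, lactoferrin, by 5.69-fold and Camp, the cathelicidin peptide, by 5.41-fold. Camp had uneven normal arrays, at -0.61 and 0.16, below the acute values of 2.13 and 2.28. Slfn4, a Schlafen protein of myeloid cells, read 2.38 and 1.94 in acute and lay between -0.10 and 0.12 on the normal and chronic arrays. Ncf4, a subunit of the phagocyte oxidase, rose 1.61-fold, a call lost without acute array 1 or either normal array. Mpo and Prtn3, enzymes of granules that are made in the bone marrow, both differed by 0.03 (adjusted p above the threshold), and Lcn2, a granule protein that binds siderophores, by 0.49 (adjusted p = 0.160).

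General leukocyte genes followed in 6 of 15 members, against 8.87% of all genes. Their median was 0.50, and 0.443 to 0.557 with an array left out. Ptprc, the pan-leukocyte antigen CD45, read 1.23 and 1.11 in acute and -0.53 and -0.56 in normal synovium, 3.29-fold higher (1.72, SE 0.34, adjusted p = 9.38e-05). Cd37, a tetraspanin, rose 3.11-fold, Itgb2, the beta chain of the leukocyte integrins, 2.91-fold and Cd44, the hyaluronan receptor, 2.46-fold. The call for Cd44 was lost whichever of the 4 arrays was left out (adjusted p up to 0.210).

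Of lymphocyte markers 4 T cell and 6 B and plasma cell genes were measured. With 8.87% of all genes higher, 0 or 1 call among so few genes, here and for mast cells, is near that share. Of 4 T cell genes 0 passed by limma, and 0 had an unadjusted p under 0.05, with differences between -0.42 for Il7r and 0.06 for Cd6, and the median of the list was -0.36. By unadjusted p, Il7r had 0.0809 and Gzmb, the cytotoxic granule protease, 0.418. Of 6 B and plasma cell genes Jchain, the joining chain of IgA and IgM, rose 2.11-fold (adjusted p = 0.0221), a call lost whichever of the 4 arrays was left out. The B cell genes Ms4a1, Cd79a and Cd79b lay at -0.38, -0.27 and -0.42. Mast cell genes passed in 0 of 4 by limma, with 0 at an unadjusted p under 0.05: Cma1, mast cell chymase, read 1.17 and 1.23 in acute and 0.49 and 0.31 in normal synovium (adjusted p = 0.335).

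The genes of fibrous matrix formed the other large group. Of 25 measured members 12 rose and 0 fell, against 8.87% of all genes that rose. The median difference was 0.96, and 0.88 to 1.039 with an array left out. Col1a1, the main chain of type I collagen, read 4.28 and 4.16 in acute, 0.83 and 0.86 in normal and 4.72 on both chronic arrays. Arthritic synovium of both kinds lay above normal synovium, and acute synovium was 10.3-fold higher (3.37, SE 0.36, adjusted p = 2.82e-12). Lum rose 10.2-fold, from 1.58 and 1.63 to 5.05 and 4.86, the highest level of the 88 sources. Postn, periostin, a matrix protein of tissues under repair, read 2.91 and 2.78 in acute, -0.31 and -0.34 in normal and 1.66 on both chronic arrays, 9.01-fold over normal. Col5a2, a chain of the type V collagen that starts type I fibrils, rose 5.47-fold, and its 2 other probes rose as well, by 3.02 and 1.26. Fn1, fibronectin, rose 5.26-fold, from 0.63 and 0.68 to 2.98 and 3.11. Col6a1 of the pericellular type VI collagen rose 4.78-fold and Lox, the enzyme that crosslinks collagen and elastin, 3.84-fold. Further members that rose were Mfap5 of microfibrils (3.06-fold), Col3a1 (2.78-fold), Bgn, the proteoglycan biglycan (2.49-fold), Tnc, tenascin C of injured tissue (2.43-fold), and Plod1, a lysyl hydroxylase of collagen (1.94-fold). The call of Mfap5 was lost whichever of the 4 arrays was left out, and that of Col3a1 without acute array 1 (adjusted p = 0.0552). Elastin, Eln, differed by 0.94 (adjusted p = 0.0742) and fibromodulin, Fmod, by 0.91 (adjusted p = 0.264). The laminins and nidogen of basement membranes passed in 0 of 8 members by limma, with 1 at an unadjusted p under 0.05. With 8.87% of all genes higher, 0 of so few genes is near that share. The median of these 8 was -0.14, and Nid1 stood highest at 0.59 (adjusted p = 0.165, limma).

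Fibroblast, cartilage and bone markers are given with the matrix because they are made by the same lineage. The share of all genes that rose, to be set beside their counts, was 8.87%. Of 9 synovial fibroblast markers 3 rose: Thy1 by 2.12-fold (2.09 and 2.10 against 1.01 on both normal arrays, adjusted p = 0.00165), Pdgfra, the receptor for platelet-derived growth factor, by 1.68-fold and Cdh11, the cadherin of the lining, by 1.5-fold. Under quantile normalization 1 of the 9 rose and 1 fell. With an array left out 1 of 9 passed, and the calls of Pdgfra and Cdh11 were lost whichever was left out. Of 3 other Pdgfra probes none passed, at -0.21, -0.20 and 0.51, while 3 of 5 other Cdh11 probes rose, by 0.66, 0.57 and 0.52. Cd55, the complement regulator of lining fibroblasts, differed by -0.36 (adjusted p = 0.202) and by 0.12 and -0.39 on its other probes. Comp rose 2.85-fold, from 0.91 and 1.13 to 2.54 and 2.53, and Col11a1, a collagen chain of cartilage, 2.41-fold, while Acan, the aggrecan core protein, lay at -0.08. The call of Col11a1 was lost whichever of the 4 arrays was left out, and that of Comp without normal array 1 (adjusted p = 0.0520), and under quantile normalization 0 of the 7 cartilage genes passed. Bmp1, the proteinase that trims procollagen, rose 2.90-fold on the probe used. Its other probes gave 1.075, past the threshold, and 0.107, not past it (adjusted p = 0.81, limma). Alpl, the alkaline phosphatase of bone-forming cells, rose 2.78-fold on the probe used (adjusted p = 0.0117, lost whichever of the 4 arrays was left out) and differed by -0.20 on another.

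Proteases that cut matrix, and their inhibitors, rose in 10 of 24 members, against 8.87% of all genes. Their median was 0.47, and 0.442 to 0.491 with an array left out. Besides Slpi and Ctss, the highest was Mmp2, the gelatinase of fibroblasts, at 2.84 and 3.00 in acute, 0.20 and 0.22 in normal and 3.35 and 3.24 in chronic synovium. It rose 6.55-fold (2.71, SE 0.31, adjusted p = 5.14e-11) and by 1.85 on its other probe. Timp2, an inhibitor that also takes part in activating Mmp2, rose 4.08-fold, from -0.30 and -0.33 to 1.80 and 1.62; its other probe gave 0.83 (adjusted p = 0.0532). The cathepsins Ctsc and Ctsz rose 2.42-fold and 2.17-fold, and Adam9, a membrane metalloprotease, 2.41-fold, the last a call lost without acute array 1 or normal array 1. Mmp14, the membrane protease that activates Mmp2, lay at -0.11 (adjusted p = 0.820).

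On a list of ligands, receptors and secreted regulators of Wnt, BMP and TGF-beta signalling 6 of 13 members rose, against 8.87% of all genes. The median of the list was 0.58, and 0.533 to 0.625 with an array left out. Tgfbi, a matrix protein induced by TGF-beta, read 2.51 and 2.42 in acute and -0.14 and 0.00 in normal synovium, 5.79-fold higher. Fstl1, a follistatin-like glycoprotein of mesenchymal cells, rose 5.67-fold. The Wnt receptor Fzd1 and the ligand Bmp6 rose 2.26-fold and 1.97-fold. Dkk3 of the dickkopf family rose 2.65-fold and Sfrp1, a secreted decoy of Wnt receptors, 2.26-fold, while 2 other Sfrp1 probes gave 0.20 and 0.40 and did not pass.

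**Figure D3:**
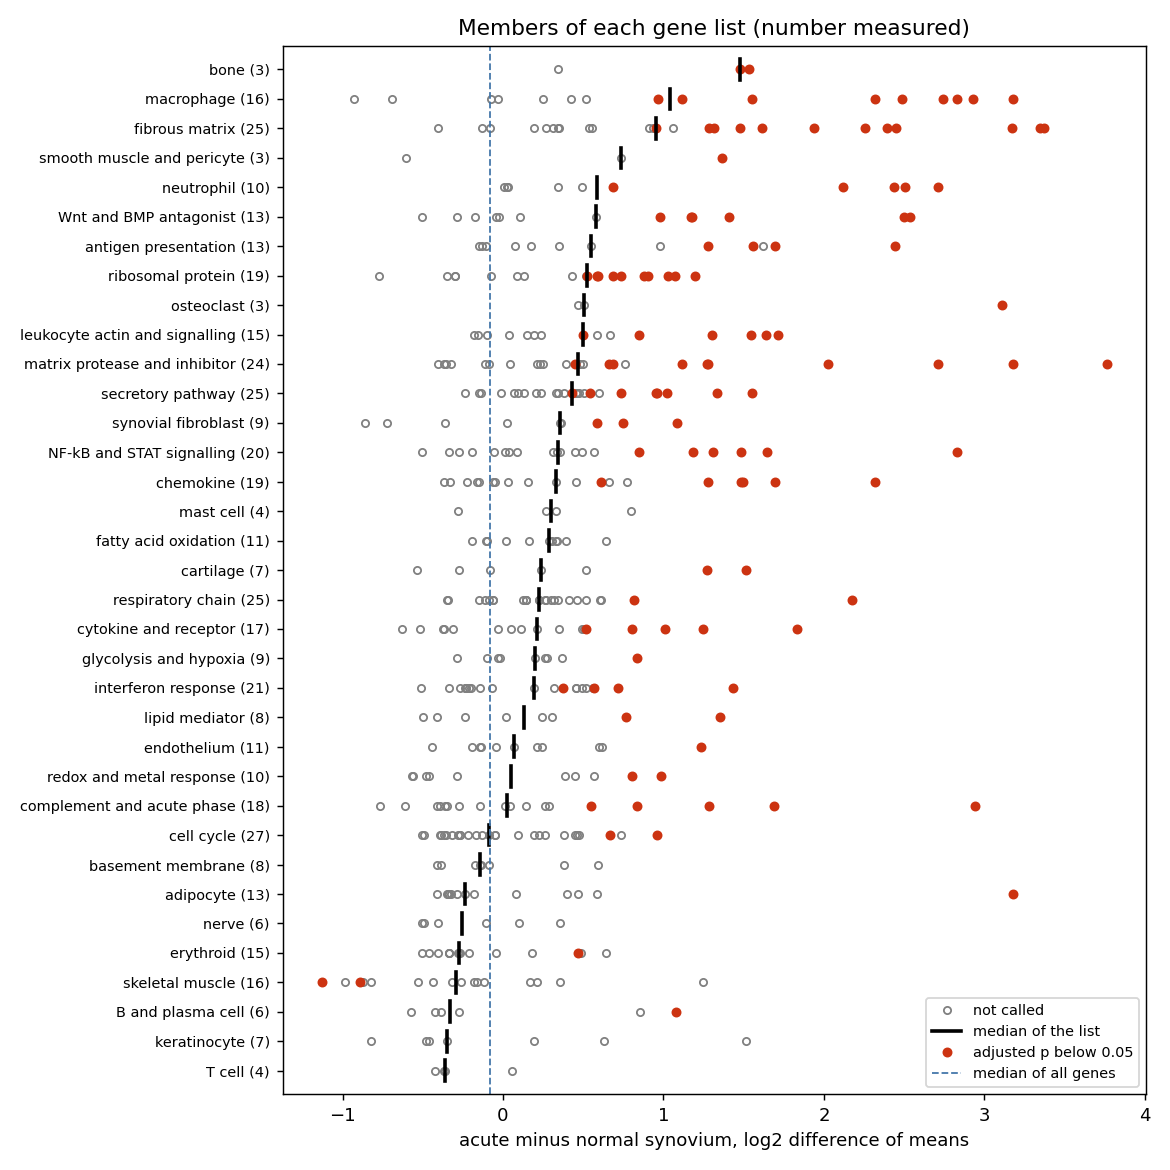
Log2 difference of acute minus normal synovium (horizontal) of every measured member of each gene list, with the number measured in brackets, ordered by the list's median (black bar). Filled red points have an adjusted p below 0.05, open points do not, and the dashed line is the median of all genes, -0.08. The medians run from -0.36 for T cell markers to 1.48 for the 3 bone genes, with macrophage markers at 1.04 and fibrous matrix at 0.96.

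Chemokines and their receptors rose in 6 of 19 members, against 8.87% of all genes. Their median was 0.33, and 0.263 to 0.402 with an array left out. Ccr2, the receptor that draws monocytes from the blood, read 2.23 and 2.20 in acute, -0.01 and -0.19 in normal and 0.46 and 0.78 in chronic synovium. Acute synovium ranked 2 of 88, 4.98-fold above normal (2.32, SE 0.40, adjusted p = 7.10e-06). Ccl12, a ligand of Ccr2, rose 2.82-fold (adjusted p = 0.00913), a call lost whichever of the 4 arrays was left out, and its other probe gave 0.85 (adjusted p = 0.0959). Cxcl12, the stromal factor that holds leukocytes in tissue, rose 3.24-fold, and its other probe gave 0.53 (adjusted p = 0.282). Cxcl13, which attracts B cells, rose 2.80-fold, a call lost without normal array 1 (adjusted p = 0.0627). Ccl4, a ligand for T cells and monocytes, rose 2.43-fold, from -0.18 and -0.01 to 1.16 and 1.20, and Ackr4, a scavenging receptor, 1.53-fold; both calls were lost whichever of the 4 arrays was left out. Ccl3, Ccl11 and Ccl22 lay at -0.16, -0.06 and -0.15.

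Of 17 cytokines and receptors 5 rose, all of them receptor chains, against 8.87% of all genes. The median of the 17 was 0.21, and 0.133 to 0.295 with an array left out. Il1r1, the signalling receptor for interleukin 1, read 2.46 and 2.23 in acute, 0.52 and 0.50 in normal and 0.94 and 0.85 in chronic synovium. It was 3.56-fold over normal (1.83, SE 0.33, adjusted p = 1.57e-05), and Il1rap, its partner chain, rose 1.43-fold, a call lost without acute array 1 or normal array 1. Osmr, the oncostatin M receptor, reached the highest level of the 88 sources and rose 2.37-fold, a call lost without acute array 1 or normal array 1 (adjusted p up to 0.0674). Il6st, the shared chain gp130 with which Osmr pairs, rose 1.75-fold, a call lost without acute array 2, normal array 1 or normal array 2. Csf2rb, the shared chain for GM-CSF, rose 2.02-fold, a call lost whichever of the 4 arrays was left out.

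The list of NF-kB and STAT signalling genes and their targets had a median of 0.34, and 0.293 to 0.445 with an array left out. Of its 20 members 6 rose, against 8.87% of all genes. Beside Cd14, these were Nfkb2, the p100 subunit, Ptx3, a soluble pattern receptor, Bcl3, a nuclear cofactor of NF-kB, Birc3, an inhibitor of apoptosis, and Stat3. Nfkb2 read 0.98 and 1.05 in acute, -0.65 and -0.61 in normal and 0.00 and 0.16 in chronic synovium, 3.12-fold over normal (1.64, SE 0.28, adjusted p = 7.25e-06). Ptx3 rose 2.80-fold to the highest level of the 88 sources, from 0.44 and 0.45 to 2.04 and 1.83. Bcl3 rose 2.48-fold, but its normal arrays were far apart at -0.88 and -0.19, and the call was lost without acute array 1 or normal array 1. Birc3 rose 2.27-fold and Stat3 1.80-fold, the latter from -0.75 and -0.90 to 0.04 and 0.00, with chronic synovium at -0.79 and -0.86, a call lost without normal array 2 (adjusted p = 0.0525). Under quantile normalization 11 of the 20 rose and 2 fell. Nfkbia, the inhibitor that NF-kB induces early, lay at 0.09 and Zfp36, which destabilises cytokine mRNA, at 0.01, neither past the threshold.

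Motifs of factors known from inflammation (kappa B, interferon, STAT, AP-1, C/EBP) and muscle (MEF2) were searched in the 250 bases before the gene start, in RefSeq promoters of the build GRCm38.p6 and on both strands. Of the 506 genes that rose 401 had a promoter in that table, as had 4614 of the 5702 tested. The kappa B motif GGGNNTTTCC was found in 11 of the 401 (2.74%), in 1.71% of the genes tested and in 1.65% of 27025 genes in all. The interferon element GAAANNGAAA was found in 5.24%, 3.51% and 3.46%, the C/EBP element TTGCNNAA in 11.5%, 9.69% and 10.8%, the AP-1 motif TGANTCA in 6.48%, 5.68% and 7.82%, the STAT element TTCNNNGAA in 6.98%, 7.00% and 8.13%, and the MEF2 element CTANNNNTAG in 2.74%, 3.38% and 3.70%. No test was made of these shares. For genes whose values are given above the windows below show such matches, in capitals, in gene orientation from 5′ to 3′, as letters in the promoter and not as sites shown to be bound. The Nfkb2 windows lie upstream of 2 of its starts, at chr19:46304701-46304736 and chr19:46305680-46305739 on the plus strand. The Ctss window is chr3:95526740-95526785 and that of Ptx3 chr3:66219805-66219862, both plus. The Slpi window is chr2:164356716-164356757 on the minus strand, and the Slfn4 window chr11:83175127-83175183 on the plus strand.
Nfkb2, first start, kappa B: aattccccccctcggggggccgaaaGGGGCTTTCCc
Nfkb2, other start, kappa B: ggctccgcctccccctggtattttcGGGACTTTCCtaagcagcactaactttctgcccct
Ctss, interferon element: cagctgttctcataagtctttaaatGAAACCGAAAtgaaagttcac
Ptx3, C/EBP element on the other strand: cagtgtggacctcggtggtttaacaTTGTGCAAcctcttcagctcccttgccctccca
Slpi, C/EBP element on the other strand: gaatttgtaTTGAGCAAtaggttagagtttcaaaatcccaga
Slfn4, AP-1: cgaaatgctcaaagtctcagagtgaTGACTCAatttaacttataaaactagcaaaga

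Antigen presentation genes rose in 4 of 13 members, against 8.87% of all genes. Their median was 0.55, and 0.347 to 0.751 with an array left out. H2-Aa, the alpha chain of an MHC class II molecule, read 2.92 and 2.59 in acute and 0.27 and 0.35 in normal synovium, 5.44-fold higher (2.44, SE 0.40, adjusted p = 1.64e-06). H2-DMa, which loads peptides onto class II, rose 2.43-fold, a call lost whichever of the 4 arrays was left out. H2-Ab1 and H2-Eb1, other class II chains, differed by 0.98 and 0.08 and did not pass. Of class I, H2-D1 rose 2.95-fold (1.37 and 0.60 on other probes, the first past the threshold), but class I genes are alike enough for their probes to share RNA. B2m, the light chain of class I, rose 3.24-fold on the probe used, from -1.49 and -1.42 to 0.25 and 0.22, whereas its other probes gave -0.36 and -0.28 and did not pass, so its direction is uncertain. Among 21 interferon response genes 4 rose, against 8.87% of all genes, with a median of 0.19. Ifitm3, a membrane barrier to viruses, rose 2.70-fold (adjusted p = 4.90e-08, limma), and Trim25, Irf9 and Psme1 rose 1.65-fold, 1.48-fold and 1.29-fold. With an array left out 1 of the 21 passed, and the calls of the last 3 were lost whichever of the 4 arrays was left out. The other Trim25 probe gave -0.02. Usp18, Iigp1 and Mx2, strongly induced by interferons, lay at -0.34, -0.51 and -0.23.

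On the list of complement and acute phase genes 5 of 18 members rose, against 8.87% of all genes. The median of the list was 0.03, near that of all genes (-0.08), and ran from -0.05 to 0.10 with an array left out. Cfb, factor B of the alternative pathway, read 1.11 and 1.20 in acute, -1.83 and -1.74 in normal and 0.11 and 0.02 in chronic synovium. It was 7.69-fold higher (2.94, SE 0.28, adjusted p = 2.75e-14), and by 1.99 on its other probe. C1s1 and C1ra, the proteases of the C1 complex, rose 3.23-fold and 2.44-fold, the latter also on a further probe, by 2.12. C2 and Lbp, the lipopolysaccharide carrier, rose 1.78-fold and 1.46-fold, with adjusted p of 0.0495 and 0.0490, and the calls of both were lost whichever of the 4 arrays was left out. Of other plasma proteins made mainly by liver, Fgb lay at -0.77, Apcs at -0.61, Orm1 at -0.28 and Crp at 0.14, none of these past the threshold.

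Genes for making and exporting protein rose as well. Of 19 ribosomal protein genes 10 rose, against 8.87% of all genes (median 0.52, and 0.496 to 0.58 with an array left out). The rise was 2.29-fold for Rpl9, 2.10-fold for Rpl3, 2.04-fold for Rplp2 and 1.87-fold for Rpl15. Rpl27a, Rpl4 and Rps6 lay at -0.77, -0.35 and -0.30. Of 25 genes of the secretory pathway 8 rose, against 8.87% of all genes. Their median was 0.43, and 0.394 to 0.414 with an array left out. Calr, a chaperone of glycoprotein folding, rose from -2.53 and -2.50 to -0.90 and -1.02, 2.93-fold, and was still among the lowest of the atlas at rank 77 of 88. Lman1, a cargo receptor, Tmed2 of transport vesicles and Sec61a1, the translocation channel, rose 2.52-fold, 2.03-fold and 1.94-fold. Another Lman1 probe gave 1.11 and did not pass (adjusted p = 0.0581, limma).

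Metabolic and growth lists had shares of genes that rose near or above the 8.87% of all genes, on few members each, except for fatty acid oxidation. In the respiratory chain list 2 of 25 passed, and the larger, Ndufs1, is uncertain: its probe rose 4.52-fold while its 2 other probes gave -0.02 and -0.15. Ogdh of the citrate cycle rose 1.76-fold. Fatty acid oxidation genes passed in 0 of 11 by limma (1 at an unadjusted p under 0.05), with Pdk4, the kinase that spares glucose, highest at 0.64 (unadjusted p = 0.0887). Pfkfb3, which drives glycolysis, was the 1 of 9 glycolysis and hypoxia genes that rose, by 1.78-fold (adjusted p = 0.0122). Of 10 redox genes Hmox1, heme oxygenase 1, rose 1.98-fold, from 0.14 and 0.21 to 1.24 and 1.08, and Nfe2l2, the factor that induces it, 1.75-fold. Of 8 lipid mediator genes Pla2g7, which degrades platelet activating factor, rose 2.55-fold, and Ptger1, a prostaglandin E receptor, 1.70-fold on the probe used against -0.49 on another. In the cell cycle list 2 of 27 passed, Kif20a of cytokinesis and Rpa2 of replication, by 1.94-fold and 1.59-fold, and the median was -0.09. Neither passed once any of the 4 arrays was left out, and another Kif20a probe gave 0.23. The call of Nfe2l2 was lost whichever array was left out, that of Ogdh without acute array 2 or either normal array, that of Pfkfb3 without acute array 1 or either normal array, and that of Ptger1 without acute array 1 or normal array 1.

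Among vessel, fat and red cell markers the share that rose was near the 8.87% of all genes. Emcn, the endomucin of veins and capillaries, was 1 of 11 endothelial genes that rose, by 2.35-fold (adjusted p = 0.0158, lost whichever of the 4 arrays was left out). Eng and Esam lay at 0.62 and 0.60 (adjusted p = 0.165 and 0.0729). Of 3 genes of smooth muscle and pericytes Rgs5, a marker of pericytes, rose 2.58-fold, and another of its probes rose by 0.68. A further Rgs5 probe gave 0.46 and did not pass (adjusted p = 0.0882, limma). Among 13 adipocyte genes Angptl4 was the 1 that rose, and Lep, Pparg and Cidea lay at -0.23, -0.35 and -0.41. Of 15 erythroid genes Sptb, beta spectrin, rose 1.38-fold on 1 probe, a call lost whichever of the 4 arrays was left out, and lay at 0.08 on the other, and Slc4a1, the anion exchanger of red cells, lay at -0.51 (adjusted p = 0.463). Nerve genes passed in 0 of 6 by limma (0 at an unadjusted p under 0.05), the unadjusted p being 0.211 for Nefl and 0.170 for Nefm. Keratinocyte genes passed in 0 of 7 by limma (1 at an unadjusted p under 0.05), with Sprr2a1, induced in stressed epithelium, at 1.51 (unadjusted p = 0.00604, adjusted p = 0.0627) and Krtdap at -0.82 (adjusted p = 0.464).

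With the spread taken from all arrays, the genes that fell were few and their differences mostly small. Other fits called more probes lower: 476 under quantile normalization and 2559 with the 4 arrays compared alone, against 52. Mb, which stores oxygen in muscle, read 3.74 and 3.54 in acute, 4.67 and 4.88 in normal and 3.86 and 3.68 in chronic synovium. It fell by 1.13 on the log2 scale (SE 0.37, adjusted p = 0.0380). Eno3, the muscle enolase, read 1.45 and 1.33 in acute, 2.31 and 2.25 in normal and 2.66 and 2.48 in chronic synovium and fell by 0.89 (adjusted p = 0.0119). These were 2 of 16 skeletal muscle markers, against 0.631% of all genes lower, and the median of the list was -0.29. Under quantile normalization 4 were lower and 1 higher, with a median of -0.76. In the fits without an array 0 of the 16 passed. Sln, sarcolipin of slow muscle, went the other way at 1.25 (adjusted p = 0.0813), and Myh4, Atp2a1 and Ryr1 lay at 0.35, 0.21 and 0.17. The part that the muscle in these samples has in the lower values of Mb and Eno3 was not tested. Fhl1, a LIM protein abundant in muscle, fell by 1.07, from 3.08 and 3.07 to 2.09 and 1.92. Hspb6, a small heat shock protein of muscle, fell by 0.75, Mal2 of epithelial transport by 1.04, Ttpa, which carries vitamin E, by 0.85 and Nell2, a secreted neuronal protein, by 0.74. The calls of Mb, Eno3, Fhl1, Hspb6, Ttpa and Nell2 were lost whichever of the 4 arrays was left out, and that of Mal2 in each case but for normal array 1.

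Of the 12 largest decreases 5 had a low value on 1 acute array and lost their call without it. Cep83 read -0.16 and -1.91 in acute and 0.48 and 0.88 in normal synovium, and without acute array 2 its adjusted p exceeded the threshold (0.506). Mgat2, at -0.23 and -1.91 against 0.00 and -0.18, and Siah1a, at 0.04 and -1.08 against 0.37 and 0.30, also had their low value on acute array 2. Rpgr, at -1.60 and -0.16, and Zfp28, at -0.67 and 0.36, had it on acute array 1. The call of Cep83 was also lost without normal array 2, and those of Rpgr and Zfp28 without either normal array. Birc6 and Taf4b, named here after their values were seen, were likewise called with -2.46 and -2.35 on acute array 2, but overlapped with normal synovium.

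Acute was set against chronic synovium with the same test. Here 55 of 5702 genes (0.965%) were higher in acute and 9 (0.158%) lower. Both comparisons share the acute arrays, so their values are given side by side and not as separate evidence. Of the macrophage markers 7 of 16 were higher in acute than in chronic synovium, of the fibrous matrix genes 1 of 25. Fcgr2b was 1.97 above chronic synovium (SE 0.23, adjusted p = 6.63e-10) beside 2.93 above normal. Cd14 was 2.21 above chronic (adjusted p = 0.000943) and Angptl4 2.48 (adjusted p = 6.63e-10). Slfn4 was 2.20 above chronic and 2.12 above normal synovium. Lst1, a leukocyte transcript of the MHC region, read 2.28 and 2.10 in acute, -0.24 and -0.03 in normal and 0.43 and 0.18 in chronic synovium, 1.89 above chronic. S100a8, Ccr2, Ccl4, Ptx3, Il1r1 and Ptprc were also higher in acute, by 1.72, 1.59, 1.62, 1.45, 1.45 and 1.45. Ltf and Camp differed by 0.28 and 0.11 from chronic synovium (adjusted p = 0.882 and 0.961).

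For the matrix genes that rose most over normal, acute minus chronic was -0.50 for Col1a1 (adjusted p = 0.731), 0.18 for Lum (0.923), 0.08 for Col5a2 (0.956), -0.85 for Fn1 (0.155) and -0.37 for Mmp2 (adjusted p = 0.776), none past the threshold, which does not show that they are alike. Postn was the 1 member of the fibrous matrix list that passed, 1.18 higher in acute (adjusted p = 0.0370, limma). The matrix protein gene Tgfbi, on another list, was 1.02 higher in acute (adjusted p = 0.00143, limma). The median acute minus chronic difference was 0.57 over macrophage, 0.29 over neutrophil, 0.43 over chemokine and 0.03 over fibrous matrix genes, with 0.03 over all genes. The genes lowest in acute against chronic synovium were Krtap1-5, a hair keratin associated protein, at -1.67, Cys1, a protein of the primary cilium, at -1.28, Eno3 at -1.18, Ltbp4, a binding protein of latent TGF-beta, at -1.05, and Tmem185a, a membrane protein, at -0.95. Tmem185a was at the same time 2.83-fold above normal synovium, and Krtap1-5, Cys1 and Ltbp4 did not pass against normal.

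**Figure D4:**
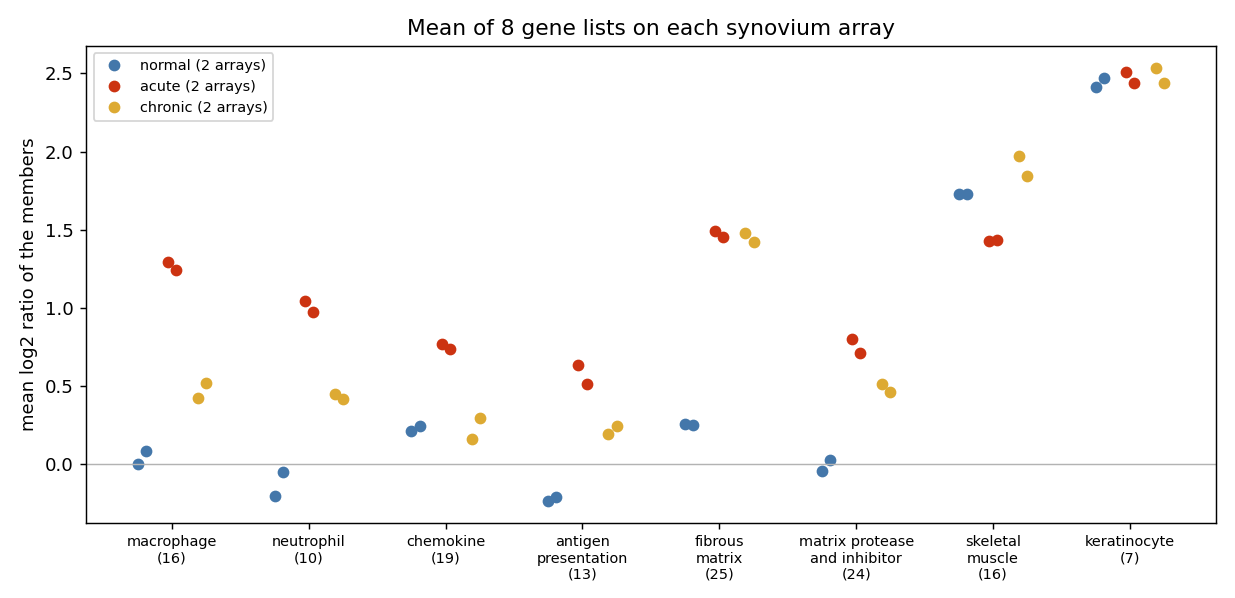
Mean log2 ratio (vertical) of the measured members of each named list on every array of normal (blue), acute (red) and chronic (yellow) synovium, with the number of members in brackets. The macrophage mean is 1.29 and 1.24 in acute, 0.00 and 0.08 in normal and 0.42 and 0.52 in chronic synovium, while the fibrous matrix mean is 1.49 and 1.45 in acute, 0.26 and 0.25 in normal and 1.48 and 1.42 in chronic synovium.

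On each array the means of the lists set the states apart in differing orders. The plot of list means by array has acute synovium highest for macrophage, neutrophil, chemokine, antigen presentation and protease genes, with chronic synovium between it and normal for all of these but chemokines, where chronic (0.16 and 0.30) and normal arrays (0.21 and 0.24) overlapped. For fibrous matrix genes the acute and chronic arrays overlapped, and both lay above normal. For skeletal muscle markers acute synovium was lowest and chronic highest. No test was made on these means, since genes of 1 list on 1 array are not replicates. As a whole, the acute profile correlated across probes with chronic synovium at r = 0.846, with normal synovium at 0.613 and next with skin in the regression phase of hair growth at 0.465, while that of normal synovium was close to chronic synovium (0.762) and to lactating mammary gland (0.605).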

How the data were processed

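The deposited values lie about 0 on a log scale and are read as log2 ratios, on which every fold given here depends (base, direction, dyes, background correction, normalization and software: not given in the sources used here). Per the labels each array set tissue RNA against a universal mouse reference RNA. The authors had centred the deposited values: 8709 probes (99.8%) had a median within 0.001 of 0 over all arrays. Array medians ran from -0.919 to 0.236. Precision is limited by 2 arrays a group.

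Platform annotation updated through GRCm38.p6 gene identifiers named 7540 probes with 1 symbol; 14 had several and 1180 none. The probe with values on the most arrays, then of the lowest number, stood for a gene; for 1402 genes others exist. Limma 3.58.1 in R 4.3.3 was fitted to all arrays with 1 mean for each of 88 sources, adjusted by Benjamini-Hochberg at 0.05. Probes needed values on 80% of arrays and a value in each synovium group, and the latter rule alone removed the same probes. Arrays were numbered in accession order. Tested on simulated data for acute against normal over 8444 probes, the fit recovered 70% of 2-fold and 98% of 4-fold changes, with 12 of 180 calls false. Each simulated probe had independent noise of equal spread on all arrays. These rates therefore cannot show how the fit fares where the spread differs between sources.

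Named were the 12 highest and 12 lowest called genes with the groups apart, up to 4 called members of each list (with fewer than 2 called, up to 2 more as values), lining markers, and the 5 highest and 5 lowest called against chronic synovium; further members are given to fill out lists. Of 1197 genes on 35 lists, 455 were measured. Members and lists were chosen with earlier results of these data known. Promoters are from RefSeq. Alternatives were scaling, arrays used, code runs, probe filters, probe averaging and leaving out arrays.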

Additional observations from a re-analysis of the deposited data

How the results depend on the processing

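The count of probes called for acute against normal synovium, 783, was 1012 with array medians centred and 772 with the consecutive array codes as a block. It was 608 of 4173 probes with a value on all arrays, 783 with no filter on missing values and 519 of 5702 with probes of a gene averaged. It rose to 1548 with quantile normalization, 3143 with the 6 synovium arrays alone, 4722 with the 4 arrays compared alone and 3207 within the AC lot, and was 367 to 459 with 1 array left out. For acute against chronic synovium the 94 probes became 55, 332, 912, 242 and 1609 with complete probes, quantile normalization, 6 arrays, 4 arrays and the AC lot, and 34 to 41 with 1 array left out. Of 92 named genes called, 90 kept their call when centred, 86 under quantile normalization, 91 with the code block, 85 with probes averaged and 54 whichever array was left out. None of the named genes past the threshold changed sign in any alternative. No paired analysis was possible because the labels of the synovium arrays carry no replicate numbers; the runs of array codes used as a block above are no pairing that the labels state, and deviations in the same run correlated at 0.119, -0.007 and -0.050 between groups. With 2 arrays a group, differences under 2-fold are often not detectable.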

Other observations

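Of the 542 genes called between acute and normal synovium, 425 stood on none of the lists. The genes given next were chosen after their values were seen, among those with a large increase and no other probe that differed in call. Thbs4, a thrombospondin of tendon and muscle matrix, read 3.95 and 4.10 in acute and 1.38 and 1.29 in normal synovium, 6.44-fold over normal (adjusted p = 1.36e-05, limma) and the highest level of the 88 sources. Calu, a calcium-binding protein of the endoplasmic reticulum, rose 4.73-fold and Fkbp7, a prolyl isomerase there, 4.34-fold. Pdgfrl, a receptor-like protein, rose 4.52-fold, and Abi3bp, a matrix protein, 2.80-fold, with chronic synovium above acute at 3.32 and 3.04 against 2.53 and 2.46 (acute minus chronic -0.68, adjusted p = 0.352).

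Myeloid genes outside the lists were Snx10, a sorting protein needed by osteoclasts, 4.39-fold over normal, Lilrb4a, an inhibitory receptor, 3.27-fold, and Clec5a, a lectin receptor, 2.77-fold. Lilrb4a read 2.40 and 2.28 in acute, 0.68 and 0.58 in normal and 0.91 and 0.93 in chronic synovium, and Clec5a 2.01 and 1.87, 0.48 and 0.46, and 0.56 and 0.48. Both were also called against chronic synovium (1.42, adjusted p = 2.61e-05, and 1.43, adjusted p = 0.0167). Casp4, an inflammatory caspase, rose 3.03-fold, from uneven normal values of -0.52 and -1.22. Abca1, a cholesterol exporter, rose 2.78-fold and Selenop, the selenium carrier of plasma, 4.16-fold, from -1.54 and -1.59 to 0.51 and 0.47. Igf1, a growth factor of fibroblasts and macrophages, rose 3.13-fold and Tgm2, which crosslinks matrix proteins, 2.54-fold, to -0.04 and -0.16.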
